A study of Mus musculus with 9 samples.

Results

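The C/EBP family and the transcription factors that act beside it in the choice between granulocytes, monocytes and other myeloid cells were followed in bone marrow cells carrying NUP98-NSD1, NRASG12D or both. The 10 genes, taken by their symbols from gene tables of 55274 identifiers, were Cebpa, Cebpb, Cebpd, Cebpe, Cebpg, Spi1, Gfi1, Gfi1b, Klf4 and Id2. Each symbol was found in all 9 libraries. NUP98-NSD1 is a leukaemia fusion of the nucleoporin NUP98 with the H3K36 methyltransferase NSD1, and NRASG12D is a mutant NRAS that stays bound to GTP. Each of the groups, named by their oncogenes as NRASG12D, NUP98-NSD1 and NUP98-NSD1+NRASG12D, had 3 libraries.

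All 3 groups began as marrow of female C57BL6/J mice aged 6 to 8 weeks. The mice had received 150 mg/kg of 5-fluorouracil, a drug that kills dividing cells, 4 days before harvest, and the marrow was kept for 48 h with human IL-6, mouse IL-3 and mouse SCF. The oncogenes were then delivered by MSCV retroviral vectors, NUP98-NSD1 with GFP and NRASG12D with BFP. The viral promoter drives strong constitutive expression that is not tied to a cell type. Cells sorted by these colours were expanded before RNA was taken, and no group with an empty vector or without a vector was analysed here. The labels do not say whether replicates came from separate mice, transductions or cultures, so p-values measure the spread between these libraries, which may be technical.

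C/EBP factors are basic leucine zipper proteins that bind DNA as pairs and act in sequence along the granulocyte lineage. C/EBPα (Cebpa) opens the granulocyte and monocyte programme, C/EBPε (Cebpe) acts in the later maturation of granulocytes, C/EBPβ (Cebpb) serves monocytes and emergency granulopoiesis, C/EBPδ (Cebpd) is induced in inflammation and maturation, and C/EBPγ (Cebpg) pairs with the others but lacks a strong activation domain of its own. PU.1, encoded by Spi1, is the ETS factor needed by all myeloid lineages and is antagonised by GATA factors. GFI1 and GFI1B are zinc finger repressors of transcription, the former acting in granulocytes and the latter in erythroid and megakaryocyte cells. KLF4 acts in monocytes, and ID2 blocks DNA binding by E proteins.

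The levels are FPKM, the fragments counted on a gene divided by its transcript length in kilobases and by the depth of the library. Estimated depth was 23500000 to 37200000 fragments per library. Differences below are differences of mean log2(FPKM + 1), tested by limma over 13493 genes that had at least 1 FPKM in at least 3 libraries. They understate changes of genes with low FPKM. A gene was called with a Benjamini-Hochberg adjusted p under 0.05. Klf4 did not reach the filter, so 9 of the 10 genes were tested.

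Cell type markers moved with the groups. The summed FPKM of 12 mast cell markers was 36236 to 38380 in the NRASG12D libraries, 29133 to 35366 with NUP98-NSD1 and 791 to 4736 with both oncogenes. For 12 neutrophil lineage markers it was 26.8 to 34.8, 1768 to 6185 and 9102 to 20110 in the same order, with 2 to 9 of the markers listed at 0 in each NRASG12D library. The 9 monocyte and macrophage markers gave 37.9 to 45.3, 486 to 1003 and 2034 to 4838. The 4 basophil and eosinophil markers gave 17.4 to 53.5, 710 to 1468 and 25.5 to 646. The 8 erythroid and megakaryocyte markers gave 599 to 674, 344 to 406 and 97.2 to 1260, the last from NUP98-NSD1+NRASG12D replicate 2 alone, where the other two had 97.2 and 120. For B cell, T cell and stroma markers no library exceeded 4.49. The mast cell marker Cpa3 was listed at 0 in every NRASG12D library while the other 11 mast markers each had at least 1 FPKM there. Cpa3 had 12564 to 14379 FPKM with NUP98-NSD1, so the mast cell sums of NRASG12D and NUP98-NSD1 do not compare like with like. In NUP98-NSD1 against NRASG12D 3 of the 12 mast markers were called higher, Cpa3 among them, and 6 lower. Of all tested genes 42.2% were called higher and 9.98% lower there. A total of 32 genes were listed at 0 in 1 library and at 100 FPKM or more in another of its group, so a listed 0 may not mean that the RNA was absent. In such bulk RNA, fewer cells of a type and less RNA per cell cannot be told apart. The part of cell type in the values below was not tested.

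The genes are first shown by their promoters. Among those printed, Cebpa, Cebpb and Klf4 were higher and Gfi1b lower in the cells with both oncogenes than in NRASG12D cells. RefSeq promoter sequences of GRCm38.p6 were matched for 7 of the 10 genes, and those whose window held no annotated exon and a motif are printed. Each runs over the 250 bases before the gene's start in RefSeq, 5′ to 3′ on the gene's strand, and capitals mark motif matches. Positions count from that start, which for Klf4 lies slightly upstream of the one in the gene coordinates given below. The windows are chr7:35119043-35119292 (+) for Cebpa, chr2:167688665-167688914 (+) for Cebpb, chr2:28621983-28622232 (-) for Gfi1b and chr4:55532476-55532725 (-) for Klf4.
Cebpa: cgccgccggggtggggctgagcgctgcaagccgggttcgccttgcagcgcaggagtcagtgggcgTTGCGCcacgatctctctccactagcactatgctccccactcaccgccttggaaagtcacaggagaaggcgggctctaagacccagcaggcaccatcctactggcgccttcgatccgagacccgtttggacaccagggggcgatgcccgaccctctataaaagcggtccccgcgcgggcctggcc
Cebpb: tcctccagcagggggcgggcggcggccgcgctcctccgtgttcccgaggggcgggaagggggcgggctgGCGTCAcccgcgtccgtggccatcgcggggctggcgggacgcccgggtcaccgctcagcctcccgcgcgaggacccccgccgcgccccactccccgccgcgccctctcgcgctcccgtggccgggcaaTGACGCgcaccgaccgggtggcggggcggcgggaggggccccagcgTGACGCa
Gfi1b: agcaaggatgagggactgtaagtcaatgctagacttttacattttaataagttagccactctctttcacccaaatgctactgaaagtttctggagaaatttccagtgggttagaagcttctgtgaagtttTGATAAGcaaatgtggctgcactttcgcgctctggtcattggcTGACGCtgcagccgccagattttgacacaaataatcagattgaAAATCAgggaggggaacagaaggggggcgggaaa
Klf4: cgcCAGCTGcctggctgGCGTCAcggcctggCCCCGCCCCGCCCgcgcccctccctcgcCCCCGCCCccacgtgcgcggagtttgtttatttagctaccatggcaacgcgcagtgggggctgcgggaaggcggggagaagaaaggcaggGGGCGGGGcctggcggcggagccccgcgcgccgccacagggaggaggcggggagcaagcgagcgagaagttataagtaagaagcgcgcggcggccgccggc

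The motifs were searched on both strands. They were TTGCNNAA and TTGCGC for C/EBP, GAGGAAG for PU.1, TGATAAG for GATA factors, AAATCA for GFI1, GGGCGGGG for KLF factors, CANCTG for E proteins, and TGACGC. The last shares the letters TGACG with the cAMP response element but is not a part of it. The Cebpa window held TTGCGC from base -185 to -180, a motif present in 5.34% of 32851 promoters. As many as 3 matches to TGACGC stood in the Cebpb window, beginning at -181, -53 and -7, and 6.12% of all promoters hold this motif. The Gfi1b window held TGATAAG at -120, present in 2.05% of promoters, besides AAATCA at -34 (12.4%) and TGACGC at -77. In the Klf4 window there were 4 matches to GGGCGGGG, of which 2 overlapped each other, a motif of 16.1% of promoters, with CANCTG at -247 (44.8%) and TGACGC at -233. Neither TTGCNNAA, found in 9.56% of promoters, nor GAGGAAG, found in 10.6%, occurred in these 4 windows. A match describes letters only.

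Cebpa (ENSMUSG00000034957.10, chromosome 7 from 35119293 to 35121928 of GRCm38, plus strand), the founder of the granulocyte and monocyte programme, was almost undetected in NRASG12D cells. It had 0.0198, 0.107 and 0.0343 FPKM in NRASG12D libraries, 5.40, 6.59 and 1.34 in NUP98-NSD1, and 9.81, 4.56 and 5.14 in NUP98-NSD1+NRASG12D. The NRASG12D values correspond to about 1.23, 9.85 and 2.01 fragments. All 6 libraries with NUP98-NSD1 lay above all NRASG12D libraries, while the NUP98-NSD1 and NUP98-NSD1+NRASG12D libraries overlapped, and NUP98-NSD1 replicate 3 was the lowest of the 6.

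Cebpe (ENSMUSG00000052435.7, chromosome 14 from 54710360 to 54712174, minus strand), the factor of granulocyte maturation, had the widest range of the C/EBP genes. NRASG12D replicates 1 and 3 were listed at 0, where 3 fragments would give 0.109 and 0.116 FPKM, and replicate 2 had 0.272. The NUP98-NSD1 libraries had 82.7, 64.0 and 15.8 FPKM and the NUP98-NSD1+NRASG12D libraries 133, 94.8 and 136. The 3 groups did not overlap, and NUP98-NSD1 replicate 3 stood apart from the other NUP98-NSD1 libraries at a level 5.22-fold under replicate 1.

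Cebpd (ENSMUSG00000071637.5, chromosome 16 from 15887286 to 15891031, plus strand) had 0.519, 1.20 and 0.740 FPKM in NRASG12D, 13.2, 10.4 and 5.44 in NUP98-NSD1, and 24.7, 20.3 and 21.0 in NUP98-NSD1+NRASG12D libraries. Its 3 groups did not overlap either. An exon of Spidr on the opposite strand covers 562 bp of Cebpd, and 13.7% of the 50-base stretches of Cebpd are shared with it. Whether counting used the strand is not given in the sources used here, so reads of this stretch cannot be assigned. Spidr itself ranged over 7.42 to 9.67 FPKM in the NRASG12D libraries, 13.3 to 16.0 with NUP98-NSD1 and 15.0 to 19.3 with both oncogenes.

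Cebpb (ENSMUSG00000056501.3, chromosome 2 from 167688915 to 167690418, plus strand, a single exon) was low in every library. It had 0.352, 0.419 and 0.408 FPKM in NRASG12D, 1.17, 1.36 and 0.822 in NUP98-NSD1, and 3.37, 2.84 and 3.89 in NUP98-NSD1+NRASG12D. The groups did not overlap in FPKM. Ranked among the tested genes of the same library, however, Cebpb stood at the 5.54 to 6.77 percentile in NRASG12D, the 3.57 to 8.47 percentile in NUP98-NSD1 and the 21.7 to 29.3 percentile in NUP98-NSD1+NRASG12D, so that by rank the first 2 groups overlapped. Tmem189 on the opposite strand covers 312 bp of Cebpb, 18.1% of its 50-base stretches, and had 3.46 to 4.97, 3.78 to 4.63 and 3.98 to 9.21 FPKM in the 3 groups.

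Cebpg (ENSMUSG00000056216.9, chromosome 7 from 35046422 to 35056573, minus strand), a neighbour of Cebpa, varied least of the C/EBP genes. The NRASG12D libraries had 2.203, 2.63 and 2.03 FPKM, the NUP98-NSD1 libraries 3.74, 2.88 and 3.04, and the NUP98-NSD1+NRASG12D libraries 3.64, 3.56 and 3.34. The last 2 groups overlapped, and both lay above NRASG12D.

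**Figure D1:**
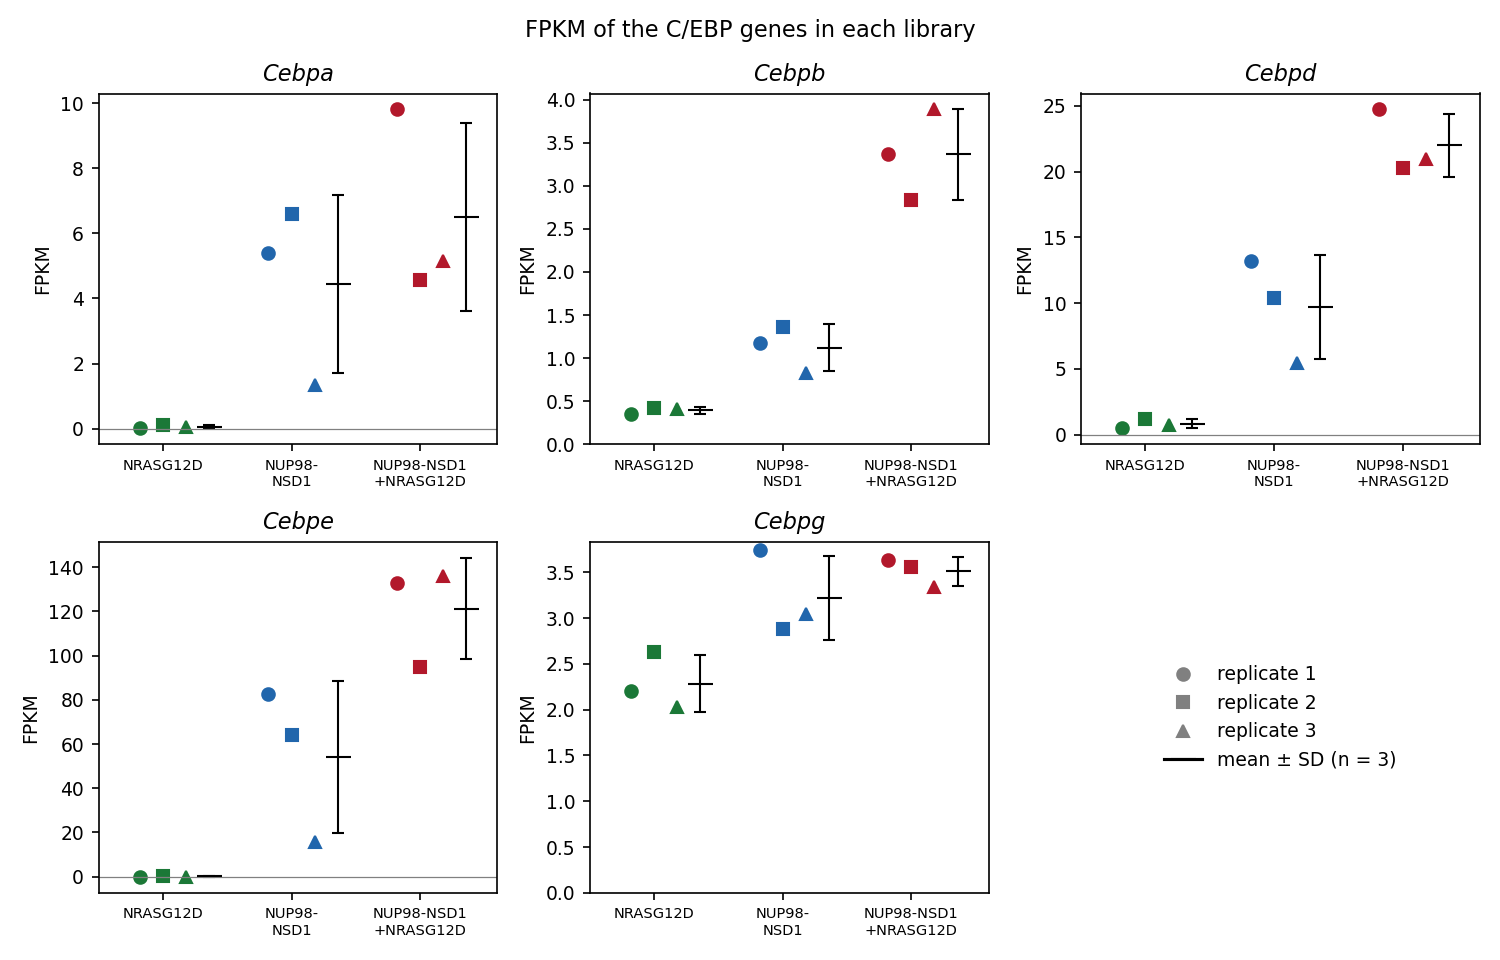
FPKM of the 5 C/EBP genes (linear axes, 1 panel per gene) in the 3 libraries of each group, marked by replicate, with the mean and SD (n = 3) beside them. Cebpb, Cebpd and Cebpe stepped up from NRASG12D to NUP98-NSD1 to NUP98-NSD1+NRASG12D without overlap, while Cebpg stayed between 2.03 and 3.74 FPKM, and NUP98-NSD1 replicate 3 is the lowest of its group for Cebpa, Cebpb, Cebpd and Cebpe.

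The make-up of the family differed between the groups. Summed over the 5 genes, C/EBP FPKM came to 3.09, 4.62 and 3.21 in NRASG12D, 106, 85.2 and 26.5 in NUP98-NSD1, and 174, 126 and 169 in NUP98-NSD1+NRASG12D libraries. Cebpg made up 56.8% to 71.2% of the sum in NRASG12D libraries. This share was 3.38% to 11.5% with NUP98-NSD1 and 1.97% to 2.82% with both oncogenes. Cebpe in turn made up 77.8%, 75.1% and 59.8% of the sum in NUP98-NSD1 and 76.2%, 75.2% and 80.3% in NUP98-NSD1+NRASG12D libraries, against at most 5.89% in NRASG12D. Cebpa never exceeded 7.73% of the sum. The shares of Cebpe overlapped between the 2 groups with NUP98-NSD1, although its level did not.

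**Figure D2:**
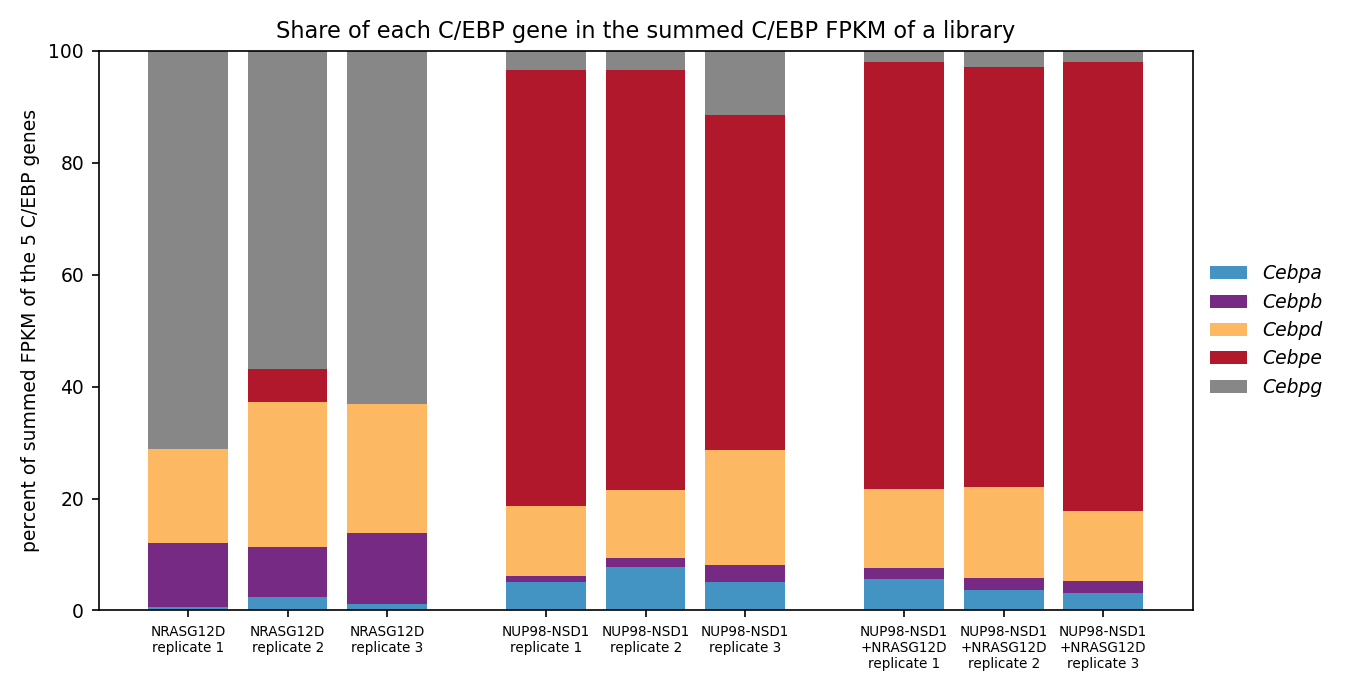
Share of each C/EBP gene in the summed FPKM of the 5 genes (vertical axis, percent) for each of the 9 libraries. Cebpg fills 56.8% to 71.2% of the bars of NRASG12D, and Cebpe fills 59.8% to 80.3% of the bars of the libraries with NUP98-NSD1.

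Spi1 (ENSMUSG00000002111.8, chromosome 2 from 91082390 to 91115756, plus strand), which encodes PU.1, was abundant in all 3 groups. It had 76.4, 81.3 and 72.6 FPKM in NRASG12D, 192, 157 and 108 in NUP98-NSD1, and 269, 235 and 274 in NUP98-NSD1+NRASG12D libraries. Without overlap, the groups rose in that order, and even the lowest library ranked at the 90.4 percentile of the tested genes. Mean FPKM was 1.98 times that of NRASG12D in NUP98-NSD1 and 3.38 times in NUP98-NSD1+NRASG12D cells.

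Gfi1 (ENSMUSG00000029275.18, chromosome 5 from 107716657 to 107726036, minus strand) encodes the repressor that acts in granulocytes. It had 0.367, 0.561 and 0.596 FPKM in NRASG12D, 2.25, 2.14 and 0.830 in NUP98-NSD1, and 3.20, 3.20 and 3.48 in NUP98-NSD1+NRASG12D libraries. The groups did not overlap, but NUP98-NSD1 replicate 3 was close to the NRASG12D range. Its relative Gfi1b (ENSMUSG00000026815.14, chromosome 2 from 28609450 to 28621982, minus strand) took the opposite order. Gfi1b had 19.3, 24.98 and 20.6 FPKM in NRASG12D and 14.6, 21.2 and 17.1 in NUP98-NSD1, which overlapped, and 5.76, 6.37 and 0.900 in NUP98-NSD1+NRASG12D, all under both other groups. Replicate 3 of NUP98-NSD1+NRASG12D was the lowest by far.

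Klf4 (ENSMUSG00000003032.8, chromosome 4 from 55527143 to 55532466, minus strand), the monocyte factor, had 0.0138 FPKM in NRASG12D replicate 1, was listed at 0 in replicate 2 and had 0.0148 in replicate 3. These values are of about 1, 0 and 1 fragments, at or under the level of 3 fragments. Klf4 had 0.997, 0.616 and 0.428 FPKM in NUP98-NSD1 and 1.55, 2.16 and 0.900 in NUP98-NSD1+NRASG12D libraries, which overlapped each other. Id2 (ENSMUSG00000020644.9, chromosome 12 from 25093799 to 25097140, minus strand) was the most abundant of the 10 genes in NRASG12D and NUP98-NSD1 cells. Its levels were 489, 635 and 520 FPKM in NRASG12D, 372, 331 and 490 in NUP98-NSD1, and 149, 293 and 127 in NUP98-NSD1+NRASG12D. The first 2 groups overlapped through NUP98-NSD1 replicate 3, and the NUP98-NSD1+NRASG12D libraries lay under both.

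**Figure D3:**
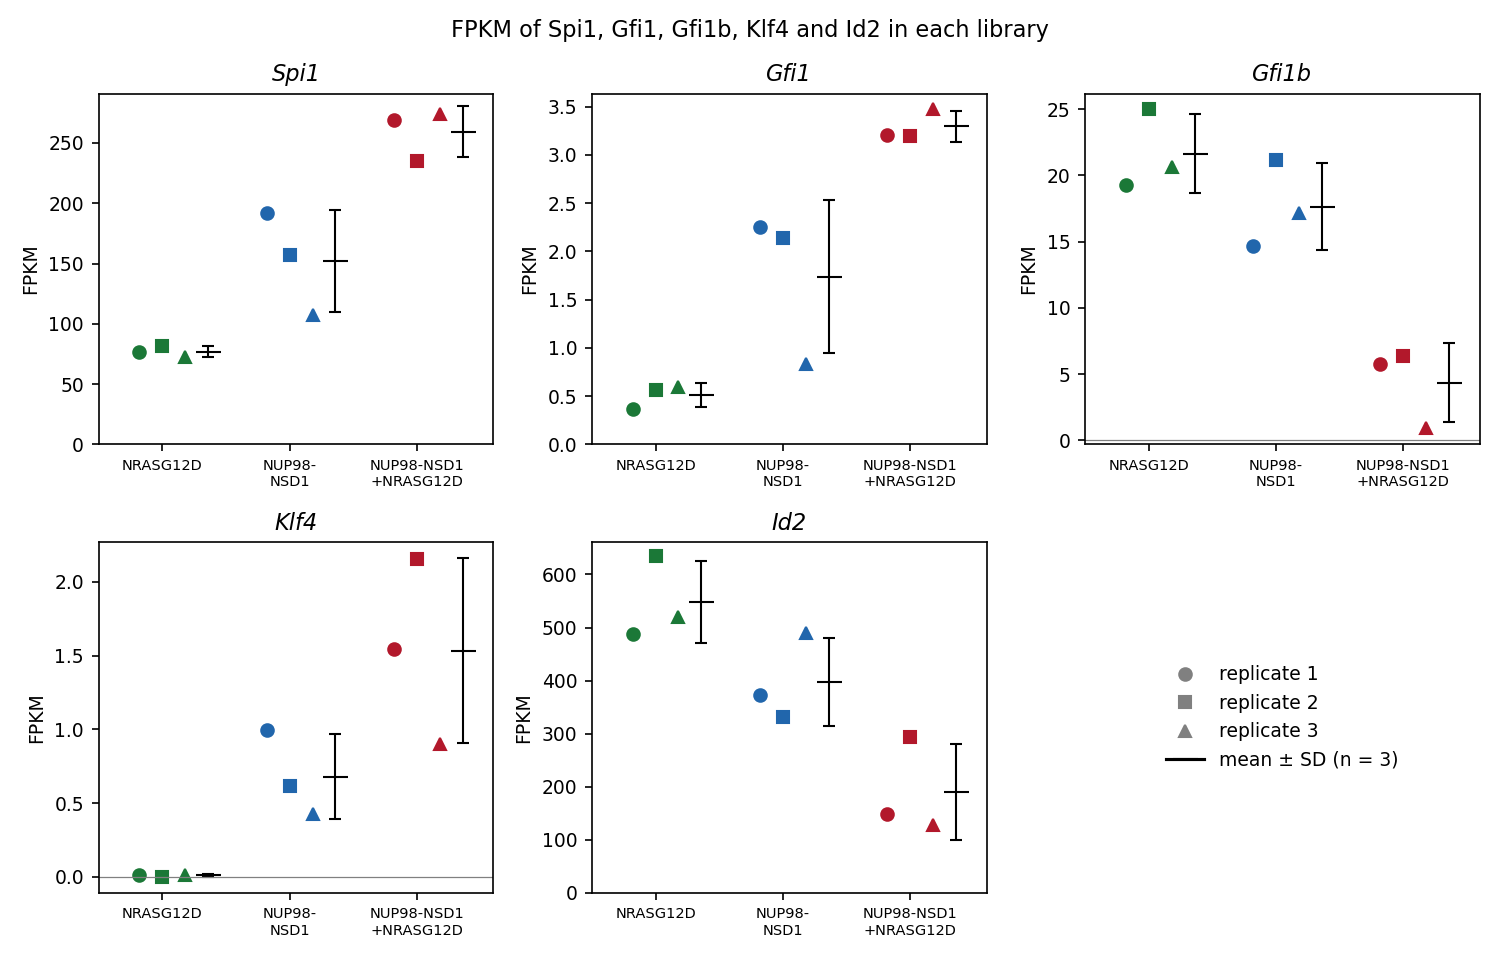
FPKM of Spi1, Gfi1, Gfi1b, Klf4 and Id2 (linear axes, 1 panel per gene) in the 3 libraries of each group, marked by replicate, with the mean and SD (n = 3). Spi1 and Gfi1 step up across the groups, while Gfi1b and Id2 are lowest in NUP98-NSD1+NRASG12D, where Gfi1b has 0.900 to 6.37 FPKM and Id2 127 to 293.

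Within a group, the order of the 10 levels changed as well. In NRASG12D cells it ran from Id2 through Spi1, Gfi1b, Cebpg, Cebpd, Gfi1, Cebpb, Cebpe and Cebpa to Klf4, and the neighbours Cebpd and Gfi1, Gfi1 and Cebpb, and Cebpe and Cebpa overlapped. Cebpe moved from position 8 to position 3 in both other groups. In NUP98-NSD1 cells the order was Id2, Spi1, Cebpe, Gfi1b, Cebpd, Cebpa, Cebpg, Gfi1, Cebpb and Klf4, and overlap was found for Cebpe with Gfi1b, Cebpa with both Cebpd and Cebpg, and Cebpb with both Gfi1 and Klf4. In NUP98-NSD1+NRASG12D cells Spi1 and Id2 held the first positions and overlapped, followed by Cebpe, Cebpd, Cebpa, Gfi1b, Cebpg, Cebpb, Gfi1 and Klf4. From Cebpa down to Gfi1 each gene there overlapped with its neighbour.

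The first comparison set NUP98-NSD1 against NRASG12D cells. These differ in both oncogenes, so the presence of the fusion and the absence of NRASG12D cannot be told apart. Of all tested genes 52.1% were called, 42.2% higher and 9.98% lower in NUP98-NSD1. Of the 9 tested factors 6 were called higher and 1 lower. Cebpa, Cebpb, Cebpd, Cebpe and Gfi1 had passed the filter only through libraries with NUP98-NSD1, so this count gives no support of its own. The groups did not overlap for 64.2% of all tested genes, 50.7% higher and 13.5% lower in NUP98-NSD1, and for Cebpa, Cebpb, Cebpd, Cebpe, Cebpg, Spi1 and Gfi1, all higher. The median difference of all tested genes was 0.27, or 0.01 after median-ratio scaling and -0.07 after quantile normalization, and differences are to be read against it.

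Cebpe rose most, by a difference of 5.38 (standard error 0.55, adjusted p = 0.000825). Without NUP98-NSD1 replicate 3 this difference was 6.09. Cebpd followed with 2.50 (standard error 0.30, adjusted p = 0.00126) and Cebpa with 2.202 (standard error 0.41, adjusted p = 0.00513), which was 2.73 without that library. The order of these depends on the added 1, and with a pseudocount of 0.1 the difference was 4.65 for Cebpa and 3.39 for Cebpd. Spi1 rose by 0.94 (standard error 0.20, adjusted p = 0.00745). The rise of Cebpb, 0.60 with a standard error of 0.14 (adjusted p = 0.0127), turned to -0.03 (adjusted p = 0.875) under quantile normalization. Gfi1 rose by 0.82 (standard error 0.24, adjusted p = 0.0242), but when each of the 6 libraries was left out in turn, only the fit without NUP98-NSD1 replicate 3 called it (adjusted p = 0.00104), the others giving an adjusted p of 0.0524 to 0.0853. Under quantile normalization the Gfi1 difference was 0.28 (adjusted p = 0.422), and with no filter on low values the adjusted p of Gfi1 was 0.0968.

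Id2 fell by 0.47 on the log2 scale (standard error 0.17, adjusted p = 0.0488) although the groups overlapped. It too was called without NUP98-NSD1 replicate 3 (adjusted p = 0.00810) and in no other fit that left out a library (0.0605 to 0.158). The limma call of Id2 was also lost with no filter on low values (adjusted p = 0.166), with all 9 libraries in a single fit (0.255) and with the replicate number as a block (0.0736). The difference of Gfi1b was -0.29 with a 95% interval of -0.65 to 0.08 (adjusted p = 0.156), and it was called lower under median-ratio scaling (-0.58, adjusted p = 0.0176) and quantile normalization (-0.61, adjusted p = 0.0139). Cebpg differed by 0.36, with an interval of 0.04 to 0.68 (adjusted p = 0.0569). For Klf4 the difference of mean log2 values was 0.72, and with no filter on low values its adjusted p was 0.0307.

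Cells with both oncogenes were then set against the same NRASG12D libraries. Here 38.3% of all tested genes were called, 24.2% higher and 14.1% lower, and 58.6% did not overlap, 38.7% higher and 19.9% lower. The groups of all 9 tested factors lay apart, 7 higher and 2 lower. The same 6 factors were called higher, 5 of them after passing the filter only through libraries with NUP98-NSD1, and Gfi1b and Id2 were called lower. The count of higher calls gives no support of its own here either. Their values are not independent of those above, since the control libraries are shared. The median difference of all tested genes was 0.23.

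Cebpe rose by 6.80 (standard error 0.20, adjusted p = 1.35e-05), Cebpd by 3.67 (standard error 0.20, adjusted p = 6.19e-05) and Cebpa by 2.77 (standard error 0.27, adjusted p = 0.000468). With a pseudocount of 0.1 Cebpa again came before Cebpd, at 5.38 and 4.65. Spi1 rose by 1.74 (standard error 0.14, adjusted p = 0.000248). Cebpb rose by 1.64 (standard error 0.17, adjusted p = 0.000535) and kept this direction under each alternative run, from 1.29 to 2.81. Gfi1 rose by 1.51 (standard error 0.16, adjusted p = 0.000602). Each of these 6 calls held in all fits that left out a library.

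Gfi1b fell by 2.30 on the log2 scale (standard error 0.50, adjusted p = 0.0121), a call lost with no filter on low values (adjusted p = 0.0552). Leaving out a library gave differences of -2.65 to -1.67, the smallest without NUP98-NSD1+NRASG12D replicate 3. Its mean FPKM in the cells with both oncogenes was 0.201 of that in NRASG12D cells. Id2 fell by 1.61 (standard error 0.32, adjusted p = 0.00856), to 0.346 of the mean FPKM in NRASG12D. Cebpg differed by 0.46, with an interval of 0.08 to 0.84 (adjusted p = 0.0572). Klf4 differed by 1.30 and had an adjusted p of 0.0249 with no filter on low values.

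The last comparison asked what NRASG12D adds to the fusion, NUP98-NSD1+NRASG12D against NUP98-NSD1 cells. Only 8.61% of the tested genes were called, 2.3% higher and 6.31% lower, and 31.4% did not overlap, 11.6% higher and 19.8% lower. Cebpb was the only one of the 9 factors called. Its difference was 1.04 (standard error 0.18, adjusted p = 0.0211), and mean FPKM was 3.01 times that in NUP98-NSD1. The call was lost without NUP98-NSD1 replicate 1 (adjusted p = 0.0756), replicate 2 (0.0712) or replicate 3 (0.0905) and without NUP98-NSD1+NRASG12D replicate 3 (0.0624), and with no filter on low values (0.0870), while the difference stayed between 0.94 and 1.13 in the fits that left out a library. The opposite-strand gene Tmem189 was also higher in replicates 2 and 3 of NUP98-NSD1+NRASG12D than in every other library, with 8.42 and 9.21 FPKM.

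For the other factors the interval of the difference is given, since a missed threshold does not show equal levels. Cebpd, Cebpe, Spi1 and Gfi1 were higher in each NUP98-NSD1+NRASG12D library than in any NUP98-NSD1 library. Their differences were 1.18 for Cebpd (0.47 to 1.89, adjusted p = 0.0586), 1.42 for Cebpe (0.06 to 2.79, adjusted p = 0.187), 0.80 for Spi1 (0.24 to 1.37, adjusted p = 0.0882) and 0.69 for Gfi1 (0.10 to 1.29, adjusted p = 0.144). Gfi1b and Id2 were lower in each library, with -2.02 for Gfi1b (-3.24 to -0.80, adjusted p = 0.0587) and -1.14 for Id2 (-1.95 to -0.33, adjusted p = 0.0899). Gfi1b was called without NUP98-NSD1+NRASG12D replicate 1 (adjusted p = 0.0437) or replicate 3 (0.0361), and Id2 without NUP98-NSD1+NRASG12D replicate 2 (0.0177). Cebpd was called under median-ratio scaling (1.27, adjusted p = 0.0415) and quantile normalization (1.23, adjusted p = 0.0413). With all 9 libraries in a single fit Cebpd, Spi1, Gfi1b and Id2 were called as well (adjusted p = 0.0218, 0.0249, 0.0176 and 0.0326), and with array weights Gfi1b and Id2 (0.00665 and 0.0199). The groups overlapped for Cebpa, which differed by 0.57 (-0.58 to 1.72, adjusted p = 0.562) and by -0.05 under array weights, for Cebpg with 0.10 (-0.28 to 0.48, adjusted p = 0.806) and for Klf4 with 0.58.

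**Figure D4:**
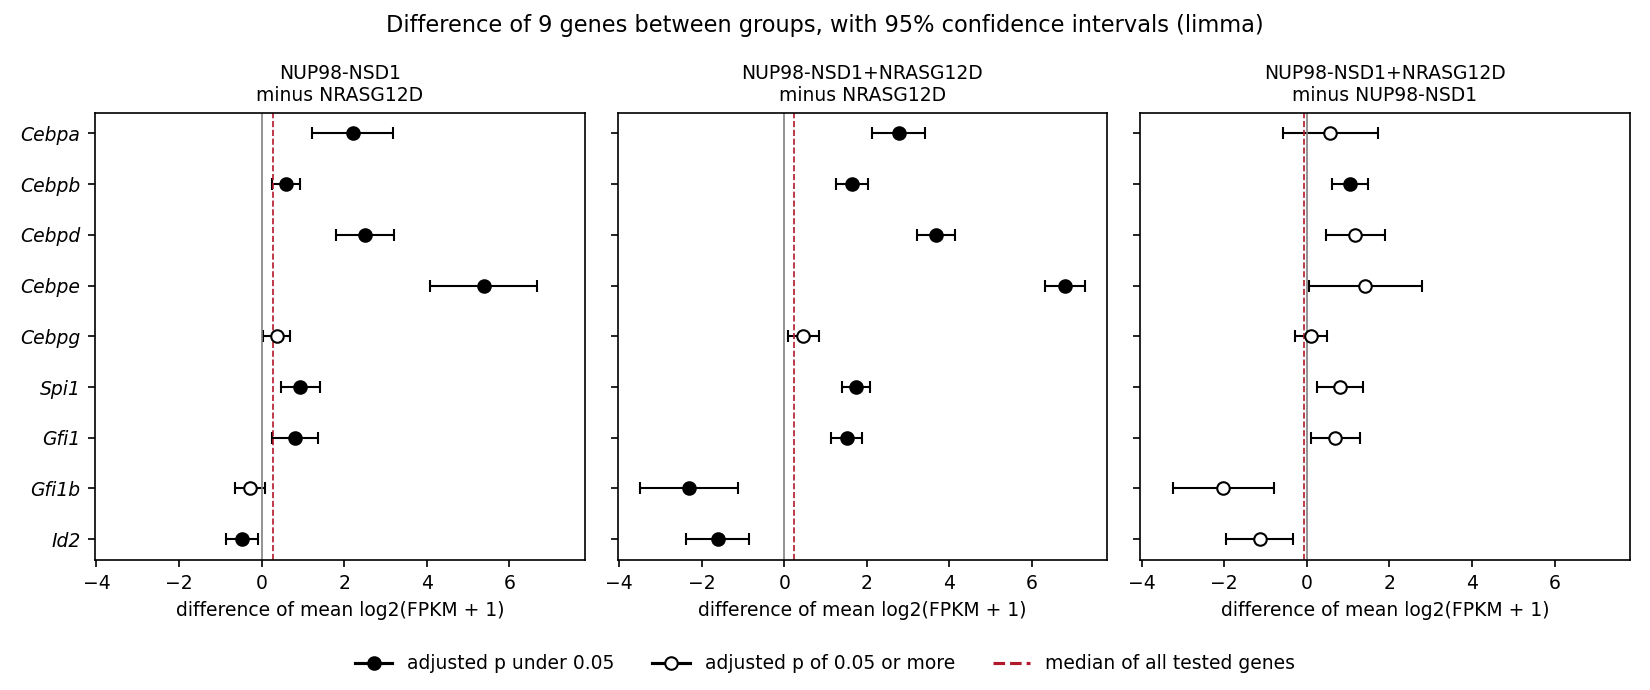
Difference of mean log2(FPKM + 1) with its 95% confidence interval for the 9 tested factors in the 3 comparisons. Filled points have an adjusted p under 0.05, and the dashed line is the median difference of all tested genes, 0.27, 0.23 and -0.06 from left to right. Cebpe lies farthest right in the comparisons with NRASG12D, and Cebpb is the only filled point in the comparison of NUP98-NSD1+NRASG12D with NUP98-NSD1.

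Ratios within a library do not depend on its scaling apart from the added 1. Spi1 and Cebpa act together in early myeloid progenitors, and the log2 ratio of Spi1 to Cebpa was 6.25, 6.22 and 6.15 in NRASG12D, 4.91, 4.38 and 5.53 in NUP98-NSD1, and 4.64, 5.41 and 5.49 in NUP98-NSD1+NRASG12D libraries. It was lower in both groups with NUP98-NSD1 without overlap, with differences of -1.26 and -1.03 (two-sided exact permutation p = 0.1 each, the smallest that 3 against 3 libraries can give), and differed by 0.24 between these groups (exact permutation p = 0.7). With a pseudocount of 0.1 the first pair of differences became -3.71 and -3.63, with Cebpa at 0.0198 to 0.107 FPKM in NRASG12D libraries. The log2 ratio of Gfi1 to Gfi1b was -3.89, -4.06 and -3.76 in NRASG12D, -2.27, -2.82 and -3.31 in NUP98-NSD1, and -0.69, -0.81 and 1.24 in NUP98-NSD1+NRASG12D libraries. It separated all 3 groups, with differences of 1.10, 3.82 and 2.71 (exact permutation p = 0.1 each), or 1.80, 5.19 and 3.38 with a pseudocount of 0.1. Replicate 3 of NUP98-NSD1+NRASG12D was the only library with more Gfi1 than Gfi1b. The log2 ratio of the granulocyte factor Gfi1 to the monocyte factor Klf4 lay between 0.36 and 1.24 in all libraries, and the groups overlapped (differences of 0.10, 0.21 and 0.12, exact permutation p = 0.7, 0.5 and 0.7). With a pseudocount of 0.1 these became -1.27 (exact permutation p = 0.1), -1.32 and -0.06. Klf4 had at most 0.0148 FPKM in NRASG12D libraries, so the overlap of NRASG12D with NUP98-NSD1 in this ratio rests on the added 1.

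**Figure D5:**
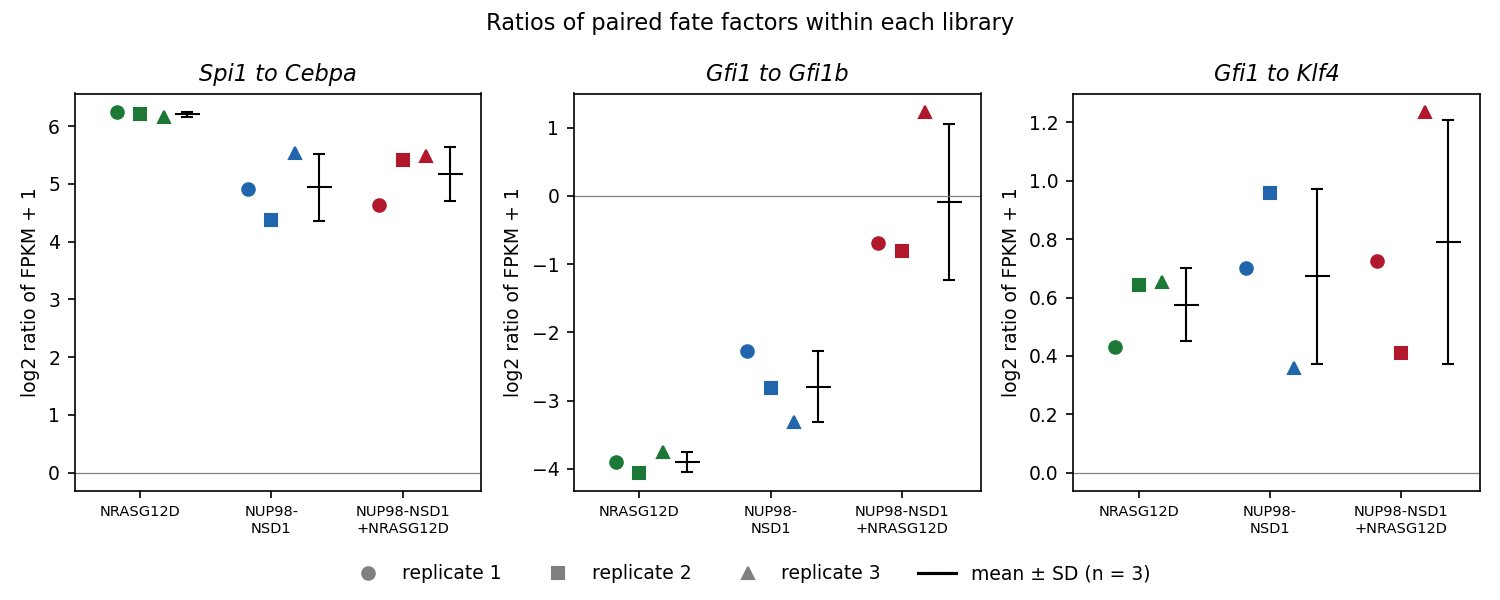
Log2 ratios of FPKM + 1 of Spi1 to Cebpa, Gfi1 to Gfi1b and Gfi1 to Klf4 (vertical axes) in the 3 libraries of each group, marked by replicate, with the mean and SD (n = 3). The ratio of Gfi1 to Gfi1b climbs from a mean of -3.90 in NRASG12D to -2.80 in NUP98-NSD1 and -0.09 in NUP98-NSD1+NRASG12D. That of Gfi1 to Klf4 overlaps in all groups with the added 1, while Klf4 has at most 0.0148 FPKM in NRASG12D.

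Relatives and regulators of the C/EBP factors moved in both directions. Of 7 genes tested, 2 rose and 3 fell from NRASG12D to NUP98-NSD1, where 42.2% of all tested genes were called higher and 9.98% lower. The list median was 0.00 against 0.27 for all tested genes. Under both median-ratio scaling and quantile normalization 1 rose and 4 fell, with list medians of -0.30 and -0.31. Trib1, an adaptor through which C/EBPα is marked for degradation, ranged over 0.0571 to 0.159 FPKM in the NRASG12D libraries, 1.33 to 1.95 with NUP98-NSD1 and 3.58 to 8.02 with both oncogenes. It passed the filter only through libraries with NUP98-NSD1, so its calls against NRASG12D give no support of their own. It rose by 1.30 and 2.58 against NRASG12D (adjusted p = 0.00105 and 0.000541) and by 1.27 from NUP98-NSD1 to NUP98-NSD1+NRASG12D (adjusted p = 0.0371), the only call of the list in that comparison. Cebpz, a relative of the family in name only, rose by 0.44 in NUP98-NSD1 (adjusted p = 0.0172). This call was lost under median-ratio scaling (0.15, adjusted p = 0.238) and quantile normalization (0.12, adjusted p = 0.356). Trib3 and Ddit3, both of the stress response, fell there, with differences of -1.12 and -0.54 (adjusted p = 0.00290 and 0.00334). Against NRASG12D, 1 rose and 2 fell in NUP98-NSD1+NRASG12D cells, with differences of -1.19 for Trib2 (adjusted p = 0.0234) and -0.90 for Trib3 (adjusted p = 0.0342). Of all tested genes 24.2% were called higher and 14.1% lower there. The list medians were -0.13 there and 0.21 between the groups with NUP98-NSD1, where 2.3% of all tested genes were called higher and 6.31% lower.

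Some partners and antagonists of PU.1 were lower in the cells with both oncogenes than in the others. Of 12 genes listed 8 were tested, and 3 rose and 2 fell from NRASG12D to NUP98-NSD1 (list median 0.22). Of all tested genes 42.2% were called higher and 9.98% lower in that comparison. None rose, 5 fell and 3 were not called in each comparison of NUP98-NSD1+NRASG12D. List medians were -0.97 against NRASG12D and -2.09 against NUP98-NSD1, where 14.1% and 6.31% of all tested genes were called lower. Gata1, the erythroid and mast cell factor that opposes PU.1, ranged over 104 to 116 FPKM in the NRASG12D libraries, 59.3 to 78.5 with NUP98-NSD1 and 1.22 to 12.6 with both oncogenes. Against NRASG12D it fell in both other groups, with differences of -0.67 in NUP98-NSD1 (adjusted p = 0.00358) and -4.40 in NUP98-NSD1+NRASG12D (adjusted p = 0.00162). Gata2 fell in NUP98-NSD1+NRASG12D cells, with a difference of -4.26 against NRASG12D (adjusted p = 0.00331) and -4.02 against NUP98-NSD1 (adjusted p = 0.0200). In the latter comparison Egr1 fell by 4.18 on the log2 scale (adjusted p = 0.00377). Egr2 and Jun, which act with PU.1 in monocytes, rose in NUP98-NSD1 by 2.06 and 0.91 (adjusted p = 0.00159 and 0.00313), and Nab2 fell there by a difference of -0.79 (adjusted p = 0.00364). The GATA genes are also mast cell or erythroid genes, and mast cell markers moved with them as given above.

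Calls among the 8 genes of the corepressor complex used by GFI1 and GFI1B depended on the scaling. From NRASG12D to NUP98-NSD1 2 rose and 1 fell (list median 0.08), 1 rose and 1 fell in NUP98-NSD1+NRASG12D against NRASG12D (median -0.09), and limma called none between the groups with NUP98-NSD1, where 0 of the 8 had an unadjusted p under 0.05 (median -0.21). Of all tested genes 52.1%, 38.3% and 8.61% were called in these comparisons. Under both median-ratio scaling and quantile normalization 2 rose and 4 fell from NRASG12D to NUP98-NSD1. From NRASG12D to NUP98-NSD1+NRASG12D 1 rose and 1 fell under median-ratio scaling, and 1 rose and 3 fell under quantile normalization. The histone deacetylase genes Hdac2 and Hdac1 rose by 1.02 and 0.69 in NUP98-NSD1 (adjusted p = 0.00543 and 0.00214). Hdac1 rose by 0.96 in NUP98-NSD1+NRASG12D against NRASG12D (adjusted p = 0.00541).

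Among E proteins and the other ID genes, 4 of 5 tested rose and none fell from NRASG12D to NUP98-NSD1 (list median 1.12). Of all tested genes 42.2% were called higher and 9.98% lower there. The rise of Tcf3 was lost under median-ratio scaling (0.23, adjusted p = 0.222) and quantile normalization (0.23, adjusted p = 0.221). Against NRASG12D, 2 rose in NUP98-NSD1+NRASG12D (median 1.02), where 24.2% of all tested genes were called higher. Between the groups with NUP98-NSD1 limma called none (median -0.10), against 8.61% of all tested genes. Of the list, 2 had an unadjusted p under 0.05 there, and 1 was called higher under median-ratio scaling and quantile normalization. Id1, a relative of Id2, went the other way from it. Id1 had 0.677, 6.90 and 1.16 FPKM in NRASG12D, 69.2, 56.2 and 25.7 in NUP98-NSD1, and 119, 91.5 and 156 in NUP98-NSD1+NRASG12D libraries. It rose by 3.96 and 5.30 against NRASG12D (adjusted p = 0.00277 and 0.000644). Tcf4, an E protein that ID proteins hold off DNA, rose by 2.15 and 3.01 (adjusted p = 0.000228 and 0.000142).

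Of the 7 other KLF genes tested, 3 rose and 2 fell in NUP98-NSD1 against NRASG12D (list median 0.17), where 42.2% of all tested genes were called higher and 9.98% lower. Klf2 and the erythroid factor Klf1 rose by 1.39 and 1.02 (adjusted p = 0.0132 and 0.0139), and Klf7 and Klf10 fell, with differences of -0.74 and -0.48 (adjusted p = 0.00698 and 0.00530). Klf13 alone was called in NUP98-NSD1+NRASG12D against NRASG12D, with a rise of 1.06 (adjusted p = 0.00210, list median -0.24). Between the groups with NUP98-NSD1 limma called none, while 3 had an unadjusted p under 0.05 (median 0.24). Of all tested genes 38.3% and 8.61% were called in these 2 comparisons. In NUP98-NSD1 against NRASG12D the rise of Klf1 was not called under quantile normalization (0.48, adjusted p = 0.181), and that of Klf13 neither there (0.22, adjusted p = 0.119) nor under median-ratio scaling (0.24, adjusted p = 0.0873).

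Granulocyte genes known as targets of C/EBP factors followed Cebpe and Cebpa in direction. All 12 rose in NUP98-NSD1 and all 12 in NUP98-NSD1+NRASG12D against NRASG12D, where 42.2% and 24.2% of all tested genes were called higher. In the NRASG12D libraries 1, 5 and 1 of the 12 had at least 1 FPKM, so most passed the filter only through the groups where they are high, and their count and median give no support. The list medians were 5.23 and 7.50 against 0.27 and 0.23 for all tested genes. Elane, which encodes neutrophil elastase, rose by 8.83 in NUP98-NSD1 (adjusted p = 0.000505) and by 10.4 in NUP98-NSD1+NRASG12D (adjusted p = 6.19e-05). Mpo, encoding myeloperoxidase, rose by 9.63 in NUP98-NSD1 (adjusted p = 0.000353), and Ngp, a granule protein gene of later stages, by 9.84 in NUP98-NSD1+NRASG12D (adjusted p = 0.000142). Mpo was listed at 0 in NRASG12D replicate 1 and had 3.53 and 0.218 FPKM in the other two. It then had 2311, 2554 and 463 FPKM in NUP98-NSD1 and 5140, 1463 and 131 in NUP98-NSD1+NRASG12D libraries, which overlapped.

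From NUP98-NSD1 to NUP98-NSD1+NRASG12D 3 of the 12 granulocyte genes rose and none fell (list median 1.75). Of all tested genes 2.3% were called higher and 6.31% lower there. Lcn2 rose by 2.63 (adjusted p = 0.0334), with 20.5 to 35.0 FPKM under the fusion alone and 87.6 to 424 under both oncogenes. Camp, a gene of secondary granules, rose by 2.25 (adjusted p = 0.0496), with 5.17 to 23.4 and 31.6 to 68.4 FPKM, and with median-ratio scaling (2.35, adjusted p = 0.0586) or quantile normalization (2.29, adjusted p = 0.0542) it was not called. Of the 12 genes 10 also stand on the neutrophil marker list, so they are no separate evidence on the factors.

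Monocyte genes known as targets of PU.1, C/EBP factors or KLF4 moved in the same way, with 11 of 12 rising in NUP98-NSD1 (list median 3.55) and 10 rising and 1 falling in NUP98-NSD1+NRASG12D (median 5.35) against NRASG12D. Of all tested genes 42.2% and 24.2% were called higher in these comparisons, and 9.98% and 14.1% lower. The filter limit given for the granulocyte genes holds for the monocyte genes too, of which 6, 8 and 5 had at least 1 FPKM in the NRASG12D libraries. Ly6c2, a surface marker of inflammatory monocytes, rose by 7.91 and 10.1 (adjusted p = 3.31e-05 and 2.93e-05) and Lyz2, encoding lysozyme, by 5.87 and 8.26 (adjusted p = 0.00246 and 0.000939). From NUP98-NSD1 to NUP98-NSD1+NRASG12D 6 rose and 2 fell (median 1.30), where 2.3% of all tested genes were called higher and 6.31% lower. Cd14 and Itgam, which encodes CD11b, rose by 2.62 and 2.49 (adjusted p = 0.0446 and 0.0363). Under median-ratio scaling these differences were 2.72 and 2.59 but not called (adjusted p = 0.0581 and 0.0540), and 3 of the list rose. Cx3cr1 and Nr4a1, genes of patrolling monocytes, fell, with differences of -1.65 and -2.08 (adjusted p = 0.0136 and 0.00885), and Cx3cr1 also fell by 2.15 on the log2 scale against NRASG12D (adjusted p = 0.00200). Nr4a1 ranged over 2.77 to 4.30 FPKM in the NRASG12D libraries, 8.46 to 14.8 with NUP98-NSD1 and 1.48 to 2.72 with both oncogenes. Cx3cr1 ranged over 11.1 to 21.4, 9.97 to 15.7 and 2.36 to 4.36 FPKM in the same order. On the monocyte marker list stand 7 of these 12 genes as well.

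Over the 9 libraries the factors formed a block and a pair. Pearson's r of log2(FPKM + 1) was positive for every pair among Cebpa, Cebpb, Cebpd, Cebpe, Cebpg, Spi1, Gfi1 and Klf4, from 0.78 for Cebpb and Cebpg to 0.99 for Cebpd and Cebpe. Gfi1b and Id2 had r = 0.90 with each other and negative values with all the rest. These values describe 9 libraries that fall into 3 groups, so the differences between groups are held in them.

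The tested genes most like each factor over the 9 libraries were found by the same measure. Nearest to Cebpe were Tfec, Il15ra and Clec12a, with r = 0.998 for Tfec. Wdr54, Ifrd1 and Slc22a15 lay nearest to Cebpb (0.998 for Wdr54), Prxl2c, Sod2 and Scand1 to Cebpd (0.996 for Prxl2c), and Mettl25, Gm5814 and Gm49207 to Cebpa (0.993 for Mettl25). Cebpg was nearest to Exoc7 (0.986), Gm6851 and Acot8. Spi1 was nearest to Gstm3 (0.994), Sowahc and Dstn, and Gfi1 to Mocs1 (0.996), Gm7908 and Cog7. For Gfi1b the nearest were Ptger3 (0.990), Krit1 and Pdrg1, for Klf4 Plxnb2 (0.987), Diaph2 and N4bp1, and for Id2 Serpinb9 (0.992), Fam219b and Man2a2. None of the 10 factors was among the 3 genes nearest to another.

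NUP98-NSD1 replicate 3 stood out across the factors. It was the lowest NUP98-NSD1 library for Cebpa, Cebpb, Cebpd, Cebpe, Spi1, Gfi1 and Klf4 and the highest for Id2. The summed neutrophil markers were 1768 FPKM in it against 6185 and 5858 in the others, and the summed mast cell markers 35366 against 29133 and 29246. Their part in the lower values of the factors was not tested.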

How the data were processed

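Transduced mouse marrow of 3 groups, with 3 libraries each, was sequenced as paired-end reads of 50 bp. FPKM were deposited by the authors, a Cufflinks gene table per library. The submitters' processing notes name STAR 2.7.2a, Cufflinks 2.2.1 and GRCm38.p6, and the methods name the GENCODE annotation. Treatment of multi-mapping reads and strand are not given in the sources used here. Cufflinks divides the fragments of a locus among its transcripts, so genes with short or shared sequence are less certain.

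Each table held 55330 lines and 55274 identifiers, and values of repeated identifiers were summed. Groups came from the labels. Genes had to reach 1 FPKM in 3 or more of the 9 libraries, and log2(FPKM + 1) was compared with limma 3.58.1 in R 4.3.3 (lmFit, eBayes with a trend) on the 6 libraries of each pair of groups, with Benjamini-Hochberg adjustment over 13493 genes. DESeq2, named in the methods for counts, was not run on FPKM. For ratios, exact permutation tests (two-sided) were used. Depth was estimated from the steps between low FPKM of 3386 single-transcript genes longer than 2500 bp. With a tolerance of 0.1 fragment, 84.0% to 86.6% of low values were whole. The floor of 3 fragments covers counting error only. In simulated data for NUP98-NSD1 against NRASG12D with 200 changed genes among 12885, limma recovered 68.7% of genes changed by 1 on the log2 scale. It recovered 100% of those changed by 2 and 98.5% of those changed by 3, with 4.81% of its calls false. The simulated libraries shared all other mean levels and had a fixed spread. In the deposited data 52.1% of tested genes were called and the median difference was 0.27, so these rates do not carry over to them.

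Coordinates are of GRCm38, counted from 1. Promoters came from RefSeq. Shared sequence was counted as the 50-base stretches of a gene that transcripts of other genes also hold. Plots used Python 3.11.15, numpy 2.4.6, pandas 2.3.3, scipy 1.17.1 and matplotlib 3.10.9. The 10 genes and the lists were chosen with earlier results of these data known. From each list, up to 2 of the largest rises and 2 of the largest falls called were named per comparison, and for each of the 10 genes the 3 tested genes of highest correlation. Some genes of the lists are not reported here by name. Other pseudocounts, filters, scalings, fits and left-out libraries were tried as alternatives.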

Additional observations from a re-analysis of the deposited data

How the results depend on the processing

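Over all alternatives and the 9 tested factors, 311 of the values kept their direction and side of the threshold, 22 lost and 16 gained a call, and 2 changed sign. The sign changes were Cebpb in NUP98-NSD1 against NRASG12D under quantile normalization (-0.035) and Cebpa in NUP98-NSD1+NRASG12D against NUP98-NSD1 under array weights (-0.052). Genes at 0 in all compared libraries could not be fitted. Depth limited Klf4, Cebpa and Cebpe in NRASG12D libraries, where most values are of few fragments or none.

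For NUP98-NSD1+NRASG12D against NUP98-NSD1 the count of called factors was 1, and 0 with no filter, 2 under median-ratio scaling and under quantile normalization, 5 with all 9 libraries in a single fit, 3 under array weights, and 0 to 2 when a library was left out. All genes called there numbered 1162, and 152 with no filter, 2251 in the single fit, 3500 under array weights, and 283 to 2509 without a library. In NUP98-NSD1 against NRASG12D 3065 genes were called in the single fit, in place of 7036, and in NUP98-NSD1+NRASG12D against NRASG12D 2941 to 6327 without a library, in place of 5173. The share of calls that were higher was 80.9%, 52.3% after median-ratio scaling and 43.2% after quantile normalization in NUP98-NSD1 against NRASG12D, and 63.1%, 53.1% and 41.3% in NUP98-NSD1+NRASG12D against NRASG12D. In NUP98-NSD1+NRASG12D against NUP98-NSD1 it was 26.8%, 33.0% and 36.7%. The cause of these shifts was not tested.

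The difference of the Gfi1 to Klf4 ratio was -1.27, -1.32 and -0.056 with a pseudocount of 0.1. Without a library it ran from -0.046 to 0.25 for NUP98-NSD1 against NRASG12D, from -0.0085 to 0.40 for both oncogenes against NRASG12D, and from -0.11 to 0.31 between the groups with NUP98-NSD1. There, that of Spi1 to Cebpa ran from -0.043 to 0.53.

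Libraries with the same replicate number did not deviate together. After removal of the group means their correlations averaged -0.0277, 0.0160 and 0.00211, with 0, 0 and 1 of 3 pairs over 0.1, and 0, 2 and 1 of the 6 libraries correlated best with their own number. With the replicate number as a block, 7 factors were called in NUP98-NSD1 against NRASG12D (Gfi1b in place of Id2), 8 in NUP98-NSD1+NRASG12D against NRASG12D and 1 in NUP98-NSD1+NRASG12D against NUP98-NSD1 (Gfi1b in place of Cebpb), among 6864, 4531 and 801 genes called.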
